A study of Drosophila melanogaster with 12 samples.

Results

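CG15209 is a protein-coding gene on the plus strand of the Drosophila melanogaster X chromosome, and it was 1 of the 16718 genes in the count table. It was selected on measured values, chosen by its lower count in cells given double-stranded RNA (dsRNA) against row than in untreated cells. That contrast is therefore described here without a test. The libraries came from S2 cells, an embryo-derived line with properties of blood macrophages, in 4 groups of 3: untreated cells (control), and cells given dsRNA against BEAF-32 (BEAF-32 RNAi), against row (row RNAi) or against both (double RNAi). The cells carried no other labelled alteration, and the dsRNA was given at 4 µg for each ml of culture, then at 8 µg for each ml 2 days later, with collection after 2 more days. The control was left without any dsRNA, and an unrelated dsRNA was not among the groups. The labels do not say whether double RNAi received the full amount of each dsRNA, or whether replicates were separate cultures. P-values thus reflect the spread among these libraries, part or all of which may be technical.

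Long dsRNA taken up by S2 cells is cut into short interfering RNAs that guide destruction of the matching transcript, which lowers the encoded protein over days. ROW is a zinc finger protein found in a chromatin complex with WOC and the heterochromatin protein 1 family member HP1c, which in flies sits largely at promoters of active genes. BEAF-32 binds DNA directly, is classed with the insulator proteins and also lies mainly near promoters. The series title names the joint role of ROW and BEAF-32 in regulating genes over long range. The sources used here give no function for CG15209.

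The assay was 3' RNA-seq, which counts transcripts from their polyadenylated ends. Total counts ran from 2276507 to 3963412 per library, and 8574 to 9107 genes had a count. The 6 libraries with row dsRNA spanned that whole range, and the 6 without it lay at 2562346 to 3258226. All 10 listed hemocyte markers had a count somewhere in the series, but NimC1 had at most 7 in any library and 0 in row RNAi. The summed level of the 10 was 1637 to 1970 CPM (each count relative to the scaled size of its library) with row dsRNA and 1709 to 2047 without it. Most of that sum was Cg25C (group means 721 to 910 CPM) and Pxn (483 to 585 CPM), so it says little about the other markers. Among these markers He, the gene of the hemocyte surface protein Hemese, was itself lower with row dsRNA, at 38.2 ± 14.8 CPM in control and 9.89 ± 1.58 in row RNAi (log2 change -1.96, SE 0.39, adjusted p = 0.0484, edgeR). Its call was lost without control replicate 3 or any 1 of the row RNAi libraries (adjusted p = 0.127 to 0.471, edgeR). He was at 62.0 ± 38.4 CPM in BEAF-32 RNAi and 24.9 ± 5.85 in double RNAi (-1.34, SE 0.35, adjusted p = 0.194, edgeR; SD, n = 3 each). The scavenger receptor gene Sr-CI stood at 64.7% of control in row RNAi and did not pass (adjusted p = 0.958, edgeR). The neuronal list was at 23.9 to 40.3 CPM with row dsRNA and 29.4 to 36.1 without it. That sum was mostly elav and Syt1, as nSyb and brp reached at most 1.39 CPM in any library. The germline list was at 45.6 to 62.3 CPM with row dsRNA and 57.8 to 73.1 without it. Nearly all of this was aub, as vas and nos reached at most 1.24 and 2.07 CPM in any library. The muscle list reached at most 3.45 CPM and the ovarian somatic list 10.1 CPM, and the fat body genes Fbp1 and Lsp2 were at 0 in all 12 libraries. The ovarian somatic sum was mostly fs(1)Yb, as tj had counts in row RNAi only. The part of these differences in the CG15209 result was not tested. In the single knockdowns the dsRNA targets were lower: the row level was 26.2 ± 5.99 CPM after row dsRNA and 50.7 ± 3.04 without dsRNA (SD, n = 3 each), and the BEAF-32 level was 21.0 ± 5.31 after BEAF-32 dsRNA and 57.2 ± 12.6 without dsRNA.

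CG15209 was low in every library that had received row dsRNA and high in every library that had not. In control its level was 34.9, 37.5 and 31.3 CPM in replicates 1, 2 and 3. In BEAF-32 RNAi it was 41.3, 30.0 and 49.6 CPM. In row RNAi it was 10.7, 6.20 and 5.56 CPM, and in double RNAi 15.9, 5.89 and 11.7 CPM. The control and BEAF-32 RNAi libraries overlapped, as did the row RNAi and double RNAi libraries, whereas the highest library with row dsRNA (double RNAi replicate 1) lay below the lowest library without it (BEAF-32 RNAi replicate 2). Each library pools many cells, so fewer cells with the transcript and less of it per cell cannot be told apart.

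**Figure D1:**
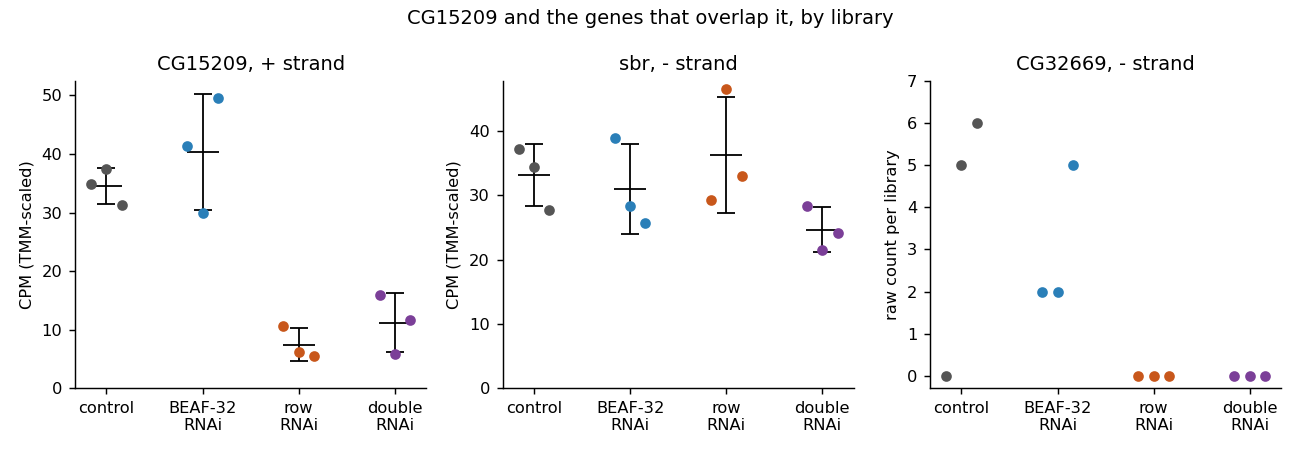
Levels of CG15209 and sbr in CPM scaled by TMM, and raw counts of CG32669, in each library (points) by group. Horizontal bars are means and error bars SD of 3 libraries; CG15209 lay at 5.56 to 15.9 CPM with row dsRNA and at 30.0 to 49.6 CPM without it, and CG32669 was at 0 in all 6 libraries with row dsRNA.

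The raw counts behind these values were 92, 120 and 90 in control and 104, 96 and 143 in BEAF-32 RNAi. They were 32, 18 and 18 in row RNAi and 36, 14 and 49 in double RNAi. A count of 14 has an exact 95% Poisson interval of 7.65 to 23.5 counts, which in that library corresponds to 3.22 to 9.89 CPM. The intervals cover counting error only. By that measure the lowest and the highest double RNAi library differed beyond counting error, since the interval of replicate 1 ran from 11.2 to 22.1 CPM. The same held in BEAF-32 RNAi, where replicate 2 had an interval of 24.3 to 36.6 CPM and replicate 3 one of 41.8 to 58.5 CPM. In the control group the 3 intervals overlapped, as they did in row RNAi.

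The order of the group means, from highest to lowest, was BEAF-32 RNAi (40.3 ± 9.87 CPM), control (34.6 ± 3.12), double RNAi (11.2 ± 5.05) and row RNAi (7.47 ± 2.77; SD, n = 3 each). BEAF-32 RNAi and control were neighbours that did not differ beyond their spread, as were double RNAi and row RNAi. Relative to the control mean, CG15209 stood at 117% in BEAF-32 RNAi, 32.4% in double RNAi and 21.6% in row RNAi. The transcript of row itself stood at 51.7% in row RNAi and 61.9% in double RNAi. The sources used here do not give the dsRNA sequences, so a match of the row dsRNA to CG15209 was not tested. Within the 6 libraries with row dsRNA, the order of CG15209 was not that of row: row was at 34.5 and 34.1 CPM in double RNAi replicates 1 and 2, where CG15209 was at 15.9 and 5.89 CPM. In row RNAi replicate 2 row was at 33.1 CPM, the highest of its group, and CG15209 at 6.20 CPM. These row levels rest on 78, 81 and 96 counts, so counting error limits how finely they can be ordered. Over all 12 libraries Pearson r between the log2 CPM of row and CG15209 was 0.78. That value includes the fall by which CG15209 was chosen and is a description only.

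The comparison of row RNAi with control, which chose the gene, gave a log2 change of -2.21 (SE 0.32, 95% interval -2.84 to -1.58), a level 4.62-fold lower. Of the 7377 genes tested in that comparison 0.19% were called at an adjusted p under 0.05, and nothing is read from CG15209 being one of them.

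Double RNAi against BEAF-32 RNAi asked what row dsRNA did in cells that also received BEAF-32 dsRNA. Its 6 libraries are other than those of row RNAi and control, but the gene was proposed with the results of all 4 groups known, so the p given here is not independent evidence. CG15209 fell by 1.84 on the log2 scale (SE 0.30, 95% interval -2.45 to -1.24), which is 3.58-fold with an interval of 2.35 to 5.45. The adjusted p was 3.45e-04 by the quasi-likelihood test of edgeR, adjusted by Benjamini-Hochberg over 7377 genes, of which 9 (0.122%) were called and 8 (0.108%) were called as lower. Each of the 3 double RNAi libraries lay below each of the 3 BEAF-32 RNAi libraries, as 12.2% of tested genes did in one direction or the other. An exact two-sided permutation test of the 6 log2 values gave p = 0.1, the smallest that 3 against 3 libraries can give. With 1 of the 6 libraries left out, the highest adjusted p was 0.0161 in edgeR (without double RNAi replicate 2). Over the same groups the row transcript averaged 41.9 ± 5.05 CPM in BEAF-32 RNAi and 31.4 ± 5.15 in double RNAi (SD, n = 3 each), a log2 change of -0.43 (SE 0.22) that did not pass (adjusted p = 0.676, edgeR). The BEAF-32 transcript stood at 36.7% of its control mean in BEAF-32 RNAi and 52.3% in double RNAi, a difference that did not pass either. The part of that difference in the CG15209 result was not tested.

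The remaining comparisons share libraries with the contrast that chose the gene and carry no test. Double RNAi minus control, which has the same control libraries, gave -1.62 on the log2 scale (SE 0.30, interval -2.23 to -1.01). BEAF-32 RNAi minus control gave 0.22 (SE 0.28, interval -0.33 to 0.77). Double RNAi minus row RNAi gave 0.58 (SE 0.34, interval -0.10 to 1.27). The interaction, which is the effect of row dsRNA in the presence of BEAF-32 dsRNA minus its effect alone, was 0.37 (SE 0.44, interval -0.51 to 1.24). Both intervals included 0 and also included differences of 1 log2 unit.

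**Figure D2:**
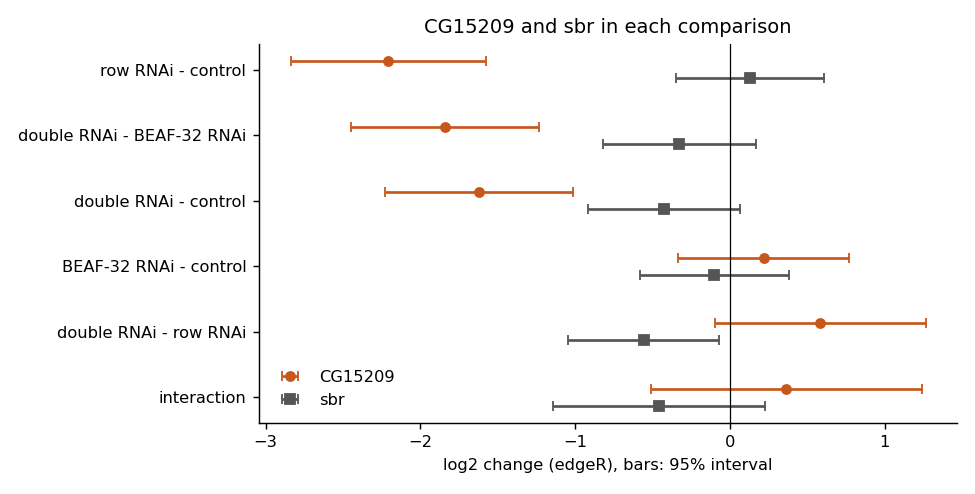
Log2 changes (x axis) of CG15209 (circles) and sbr (squares) in the 6 comparisons (y axis), with 95% intervals from the edgeR fit. CG15209 lay between -2.21 and -1.62 in the 3 comparisons that add row dsRNA, and its intervals included 0 in the other 3, while sbr lay between -0.56 and 0.13.

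Among all tested genes, 34 (0.461%) had every library with row dsRNA below every library without it, and 27 (0.366%) had every one above. CG15209 was among the 34, and its gap of 0.88 log2 units between the highest library with row dsRNA and the lowest without was wider than that of the other 33. The next was 0.40 log2 units, for Nplp2, which encodes a neuropeptide-like precursor. These values are a description, since the gene was chosen for its low level after row dsRNA.

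CG15209 lies where other genes lie. In the reference annotation (BDGP6.54, a later build than the dm3 build named in the submitters' processing notes, so that it served for names and order only) its single exon is inside an intron of 1 of the 3 sbr transcripts, on the opposite strand. The other sbr transcripts do not reach it, and no sbr exon overlaps it. CG32669, also a single-exon gene on the minus strand, overlaps the exon of CG15209 tail to tail. Its listed synonym, dSLC5A4, is the name of a solute carrier. The sources used here do not say whether reads were counted by strand, so reads of the shared stretch cannot be assigned with certainty.

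sbr encodes the fly NXF1 protein, the main carrier of messenger RNA out of the nucleus. Its level was 37.2, 34.4 and 27.8 CPM in control and 38.9, 28.4 and 25.7 CPM in BEAF-32 RNAi. It was 29.3, 46.5 and 33.1 CPM in row RNAi and 28.3, 21.5 and 24.2 CPM in double RNAi, so its libraries with row dsRNA (21.5 to 46.5 CPM) enclosed those without (25.7 to 38.9 CPM). In row RNAi against control its log2 change was 0.13 (SE 0.24, interval -0.35 to 0.61, adjusted p = 0.994), and in double RNAi against BEAF-32 RNAi it was -0.33 (SE 0.25, interval -0.82 to 0.17, adjusted p = 0.8), both in edgeR. Neither passed the threshold. There were 0.939 to 1.93 CG15209 counts per sbr count in the 6 libraries without row dsRNA. In the 6 with it there were 0.133 to 0.562, and these ranges did not overlap. The ratio contains the CG15209 counts by which the gene was chosen, so it restates their fall and is a description only.

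CG32669 gave few counts. It had 0, 5 and 6 in control, 2, 2 and 5 in BEAF-32 RNAi, and 0 in each of the 6 libraries with row dsRNA. The control libraries together held 11 counts, or a pooled 1.26 CPM of total counts (exact 95% Poisson interval 0.629 to 2.25), and the BEAF-32 RNAi libraries 9, or 1.04 CPM (0.474 to 1.97). A floor of 3 counts over a group was set in place of 0. The pooled control level was 3.89 times that floor in row RNAi, and the BEAF-32 RNAi level 2.96 times that in double RNAi. These ratios leave out the counting error of the 11 and 9 counts, so they are not lower limits of the fall. CG32669 did not reach the filter on low counts. In the fit without that filter (11090 genes) its adjusted p in edgeR was 0.918 for row RNAi against control and 0.782 for double RNAi against BEAF-32 RNAi. The 95% intervals of its log2 change there were -9.37 to -0.42 and -9.21 to -0.15. Unadjusted p was 0.0322 and 0.043.

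The overlapping pair can also be read as a share. Of the 665 counts of CG15209 and CG32669 in the libraries without row dsRNA, 20 were assigned to CG32669, or 3.01% (exact 95% Clopper-Pearson interval 1.85% to 4.61%). Of the 167 counts of the pair in the libraries with row dsRNA, 0 were, which has an exact upper limit of 2.18%. These intervals pool the libraries and cover counting error only, so they do not decide whether the share differed between the groups. Whether the few CG32669 counts are reads of CG15209 was not tested.

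Neighbouring genes did not pass the test. Of the 20 annotated genes nearest in order to CG15209 on the X (10 on each side, the overlapping pair included), 19 were in the table and 13 were tested. In edgeR 0 of the 13 were called in row RNAi against control, where 0.19% of all 7377 tested genes were. In double RNAi against BEAF-32 RNAi 0 of the 13 were called, where 0.122% of all were. With shares this low, 0 calls among 13 genes says little about the neighbours. At an unadjusted p under 0.05 in edgeR there were 0 and 2 of the 13, and 423 and 562 of all tested genes. DESeq2 and limma-voom also called 0 of the 13 in both comparisons. The median log2 change of the 13 was -0.07 in row RNAi against control (7 below 0, all tested genes 0.00 at the median) and -0.23 in double RNAi against BEAF-32 RNAi (9 below 0). Of the 13, 53.8% and 69.2% were thus below 0 in these comparisons, against 51.0% and 50.3% of all tested genes. The range of the 13 was -0.96 to 0.54 in the former and -0.80 to 0.28 in the latter.

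Next to the overlapping pair, Pgls (listed in the table as CG17333), the gene of the pentose phosphate enzyme 6-phosphogluconolactonase, had a log2 change of -0.07 (SE 0.25) in row RNAi against control. In double RNAi against BEAF-32 RNAi it was at -0.50 (SE 0.26, adjusted p = 0.681, edgeR). CG2202 was at 0.54 (SE 0.42) and -0.02 (SE 0.41) in these comparisons. On the far side of sbr the noncoding transcript CR45204 was at 0.15 (SE 0.12) and 0.28 (SE 0.12, adjusted p = 0.517, edgeR). On the other flank feo, the gene of a microtubule-bundling protein of the dividing cell's midzone, was at 0.15 (SE 0.20) and 0.17 (SE 0.20). The lowest of the 13 in row RNAi against control was BTBD9, the outermost gene shown on its side and named after its value was seen, at -0.96 (95% interval -1.94 to 0.02, adjusted p = 0.85, edgeR), with a mean at 51.6% of control. Its interval overlapped the CG15209 interval of -2.84 to -1.58, and in double RNAi against BEAF-32 RNAi those of BTBD9, sofe and CG2186 overlapped that of CG15209.

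**Figure D3:**
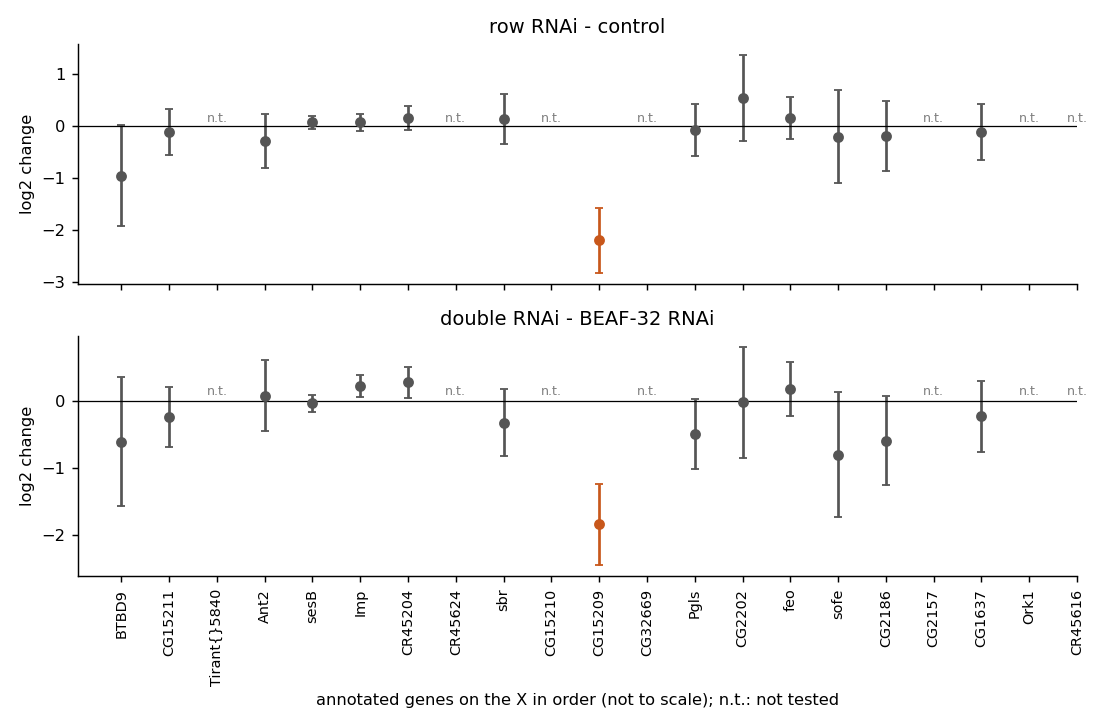
Log2 change with 95% interval (y axis) of CG15209 (orange) and the 20 annotated genes nearest in order on the X (grey), in row RNAi minus control and in double RNAi minus BEAF-32 RNAi. The 13 tested neighbours lay between -0.96 and 0.54 and between -0.80 and 0.28, against -2.21 and -1.84 for CG15209; n.t. marks genes that were not tested.

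Genes of the ROW and HP1c complex were measured in the same libraries. Of the 5 listed members (row, woc, HP1c, HP1b and Ubqn), all tested, 1 fell and 0 rose in row RNAi against control, namely row, the target. The partners woc (log2 change -0.14, SE 0.14), HP1c (0.26, SE 0.20) and HP1b (-0.21, SE 0.20) did not pass, and the median was -0.14. Of 8 promoter and insulator genes (BEAF-32, Dref, Chro, pzg, Cp190, CTCF, su(Hw) and Trl), 0 passed in row RNAi against control in edgeR, DESeq2 or limma-voom, 0 had an unadjusted p under 0.05, and the median was 0.07. Over all 7377 tested genes, edgeR called 0.19% in that comparison, and 423 had an unadjusted p under 0.05. In double RNAi against BEAF-32 RNAi 0 of the 5 and 0 of the 8 passed in edgeR, with 0 and 2 at an unadjusted p under 0.05, and DESeq2 called 1 of the 8. Over all 7377 tested genes, edgeR called 0.122% in this comparison, 562 had an unadjusted p under 0.05, and DESeq2 called 24. With shares this low, 0 calls among 5 or 8 genes says little about those genes. BEAF-32 was at 0.51 (SE 0.23, adjusted p = 0.569, edgeR) there, and Dref, the gene of the factor that binds the DNA replication-related element, at -0.75 (SE 0.20, adjusted p = 0.123).

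The genes with the nearest profiles to CG15209 were sought over the 12 libraries by the root mean square difference between log2 CPM values, each gene centred on its own mean. Over all other tested genes the median of this difference was 1.12, close to the 1.09 by which CG15209 itself departs from a flat profile. The 5 nearest were CG8157 (0.56), CG7860 (0.58), CG5167 (0.62), and CG14933 and CG42486 (0.66 each). The last pair had the same count as each other in all 12 libraries, so they are 1 measurement. Across genes with a total of at least 100 counts, 46 of 7188 had counts equal to those of another gene in every library. Such genes cannot be told apart in the table.

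CG8157, on 2R, was at 17.1, 13.7 and 20.5 CPM in control and 17.1, 18.4 and 18.7 in BEAF-32 RNAi. It was at 7.33, 10.3 and 5.25 CPM in row RNAi and 11.1, 3.37 and 5.75 in double RNAi, so the libraries with and without row dsRNA did not overlap. Within double RNAi both CG8157 and CG15209 were lowest in replicate 2 and highest in replicate 1. CG7860, also on the X, encodes a probable asparaginase and averaged 9.81 ± 4.41 CPM in control, 8.69 ± 3.60 in BEAF-32 RNAi, 2.95 ± 0.25 in row RNAi and 3.39 ± 1.05 in double RNAi (SD, n = 3 each). Its libraries did not overlap either, at counts of 6 to 19 with row dsRNA. CG5167, on 3R, lay at 16.7 to 22.8 CPM in control and 10.7 to 20.3 in BEAF-32 RNAi, and at 5.56 to 11.7 in row RNAi and 5.05 to 11.5 in double RNAi, so its libraries overlapped. In CG14933, on 2L, double RNAi replicate 1 (20.4 CPM) was above the control libraries (18.4 to 20.1 CPM). The genes were picked for their likeness over these libraries, so no test is given.

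**Figure D4:**
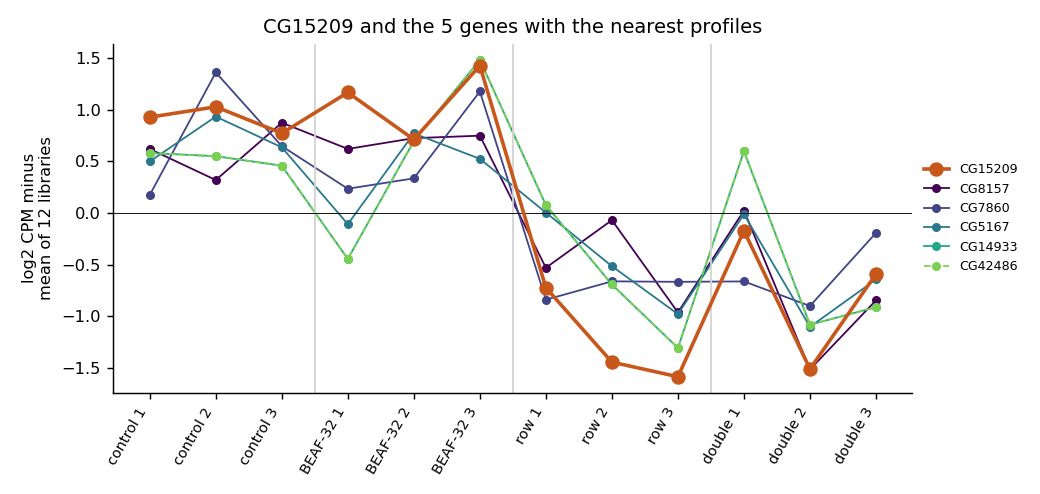
Log2 CPM minus the mean of the 12 libraries (y axis) for CG15209 (orange, thick) and the 5 genes with the nearest profiles, in each library in order of group and replicate; lines only join the points of a gene. CG14933 and CG42486 coincide, and CG8157, the nearest, differs from CG15209 by a root mean square of 0.56.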

How the data were processed

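The deposited table holds whole-number counts for each gene and library, not normalized, from 3' RNA-seq with oligo-dT primers that carry a sample barcode and a molecular identifier, per the labels' protocols. Reads were aligned with STAR to dm3, per the submitters' processing notes. The sources used here do not name the annotation or the counter, or say whether strand or molecular identifiers were used in counting. Columns were tied to samples by title. The fit used edgeR 4.0.16 under R 4.3.3: filterByExpr by group (minimum count 10), TMM scaling over the 7377 genes kept, and a robust quasi-likelihood fit of all 12 libraries with no block. Benjamini-Hochberg adjustment ran over all genes tested (threshold 0.05). CPM is relative to the TMM-scaled total of the genes kept, except where totals of all genes are named, and log2 CPM has a prior count of 2. SE is the log2 change over the square root of F. Alternatives were DESeq2 1.42.0, limma-voom (limma 3.58.1), other scalings and filters, a replicate block and leaving out libraries. The fit was checked on simulated counts with known changes in double RNAi against BEAF-32 RNAi, 50 genes for each size of change. It called 22% of 1.5-fold, 66% of 2-fold and 86% of both 3-fold and 4-fold changes. More genes were changed in the simulation than were called in the data, which can raise the share called. A gene that did not pass in that comparison may therefore have changed without being called, most easily by 2-fold or less but also by 3-fold or 4-fold. The other comparisons were not simulated.

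The gene, the lists and the tests were chosen with earlier results of these data known. Named were CG15209, the genes that overlap it, both dsRNA targets, the 5 nearest profiles, members of the lists that passed, and, as no neighbour passed, the 4 nearest tested neighbours (5 with a tie in order). List members that did not pass, Nplp2, Dref, the markers He and Sr-CI, and the neighbours BTBD9, sofe and CG2186 were named after their values were seen, and leaving out libraries for He was chosen after seeing the data. A planned search of the promoter for the BEAF-32 and DRE motifs, and of the protein, was not run, since no sequence was used here. No pair of libraries in a group agreed within sampling noise (chi-square per degree of freedom 3.71 to 6.42).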

Additional observations from a re-analysis of the deposited data

How the results depend on the processing

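The fall of CG15209 in double RNAi against BEAF-32 RNAi passed the threshold under every alternative run, with the limit that the gene was proposed with these results known: the log2 change was -1.87 to -1.80 and the adjusted p 4.40e-06 to 0.00248 over 8 other settings, and -2.13 to -1.56 with an adjusted p of 2.10e-04 to 0.0161 when 1 library was left out. Without a test, row RNAi minus control was -2.25 to -2.20 over the other settings and -2.55 to -2.03 when 1 library was left out, lowest without row RNAi replicate 1. The sbr changes were called in none of these fits.

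The number of genes called in double RNAi against BEAF-32 RNAi (9) was 19 with library totals, 23 with no filter and 24 in DESeq2, and 4 to 24 when 1 library was left out (4 without double RNAi replicate 3, 24 without double RNAi replicate 1). For row RNAi against control (14) it was 22 in DESeq2 and 4 to 13 with 1 library left out. For double RNAi against control (20) it was 9 to 23, and for BEAF-32 RNAi against control (2) 1 to 4, with 1 library left out. For double RNAi against row RNAi it was 0 in edgeR, DESeq2 and limma-voom (458 at an unadjusted p under 0.05), 3 with no filter, 2 with only the groups compared, and 0 to 2 with 1 library left out. The cause of these shifts was not tested.

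Same-numbered libraries did not deviate together (correlation of deviations -0.12 to 0.06 over 18 pairs), and 3 of 12 libraries correlated best with their own number, so the numbers were not taken as pairs. With the replicate block CG15209 was -1.87 (adjusted p = 2.35e-04, edgeR) in double RNAi against BEAF-32 RNAi, and 9 genes were called there. Values of CG15209 with row dsRNA rest on 14 to 49 counts, which limits how finely those 6 libraries can be ordered.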
